A study of Mus musculus with 36 samples.

Results

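The 10 genes described here are the myogenic regulatory factors Myog, Myod1, Myf5 and Myf6, the acetylcholine receptor subunit genes Chrna1, Chrnb1 and Chrnd, the receptor kinase gene Musk, and Runx1 and Gadd45a. They were chosen by their gene names, and all 10 were found among the 46893 features of the count table. Their RNA was measured in the gastrocnemius, a calf muscle, of 36 male wild-type C57BL/6 mice that were 3 to 4 weeks old at the start and were kept for 12 weeks. In all, 6 groups of 6 mice were compared, with 1 library for each mouse. The NFD-C mice ate the AIN93G diet and were sedentary, and the HFD-C mice ate a high-fat diet and were sedentary. The other 4 groups (HFD-25%, HFD-50% and HFD-75%, and also HFD-U) ate the same high-fat diet and had a running wheel in the cage. HFD-U mice ran without restriction, on average 8.3 km per day, and brakes held the other groups to 2.1, 4.2 and 6.3 km per day. Brakes were put on once a restricted mouse had run its distance for the night.

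Myogenic regulatory factors are basic helix-loop-helix proteins that bind the E-box and switch on muscle genes. Myf5 and MyoD mark muscle precursor cells, myogenin drives their differentiation, and Myf6 (MRF4) is the family member most abundant in mature fibres. At the neuromuscular junction the receptor for acetylcholine is built from alpha, beta, delta and epsilon subunits, which nerve-derived agrin gathers under the nerve ending through MuSK. Loss of the nerve is known to raise myogenin, the receptor subunits, MuSK, Runx1 and Gadd45a together, which is why these genes are described as 1 group.

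The upstream sequences of Myog, Chrna1 and Gadd45a are shown because Myog and Gadd45a separated HFD-U from HFD-50% and Chrna1 separated HFD-U from NFD-C, and because E-boxes are the sites through which the myogenic factors act. Each run below holds the 150 bases before the transcription start in the RefSeq promoter table (build GRCm38.p6), read 5′ to 3′ on the strand of the gene, with E-boxes (CANNTG, the same on both strands) and the N-box (CCGGAA, searched on both strands) in capitals. Myog lies on the plus strand (chr1:134289854-134290003), Chrna1 on the minus strand (chr2:73580339-73580488) and Gadd45a on the minus strand (chr6:67037408-67037557).
Myog: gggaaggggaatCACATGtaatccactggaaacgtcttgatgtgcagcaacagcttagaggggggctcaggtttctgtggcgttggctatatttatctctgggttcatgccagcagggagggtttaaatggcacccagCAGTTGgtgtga
Chrna1: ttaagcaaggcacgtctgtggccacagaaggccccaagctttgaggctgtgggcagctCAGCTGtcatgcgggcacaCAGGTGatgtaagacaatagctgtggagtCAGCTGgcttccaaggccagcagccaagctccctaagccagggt
Gadd45a: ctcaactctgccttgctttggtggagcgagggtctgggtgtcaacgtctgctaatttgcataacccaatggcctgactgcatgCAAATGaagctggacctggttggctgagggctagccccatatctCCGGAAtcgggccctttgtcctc

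A promoter was found in the table for 7 of the 10 genes, as windows of 250 bases before and 50 bases after the start. The first promoter of 6 of these 7 held an E-box, against 72.2% of 27018 mouse promoters of the same length. At least 3 E-boxes were found in the first promoter of 4 of the 7 (Chrna1, Chrnb1, Musk and Runx1), against 17.5% of all promoters. Promoter 2 of Runx1 held 0 E-boxes and 1 N-box. The Myog window held E-boxes with first bases at -138 and -12 from the start, the Chrna1 window at -92, -73 and -44, and the Gadd45a window at -67. The letters of the E-box CAGCTG, which occurred at -92 and -44 in Chrna1, were present in 16.1% of promoters. The letters CCGGAA occurred at -23 in Gadd45a and in 15.2% of promoters. A match of letters describes the window and does not show that a factor binds there.

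Each library held 13060090 to 27981702 counted reads. Levels are given as CPM, the counts scaled to an equal library size (with TMM factors), and as CPM divided by the gene length in kilobases (FPKM) where genes are compared with each other. The 9 muscle fibre markers, among them Ckm and Acta1, summed to between 92179 and 165657 CPM in every mouse. The share of counts on 6 rRNA-linked features split the libraries: it was 2.01 to 3.805% in 10 of them, all 6 of NFD-C and replicates 1 to 4 of HFD-C, and 0.404 to 1.02% in the other 26. Comparisons of running mice with HFD-C therefore set libraries with a low share against a mostly high-share group, and comparisons of running groups with each other do not cross this split. Within the low-share libraries the share was 0.559 to 1.02% in HFD-50% and 0.470 to 0.622% in HFD-U. In RNA from whole muscle, fewer cells of a type and less RNA per cell cannot be told apart.

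Per length, Myf6 stood far above the others with a mean of 83.3 FPKM over the 36 mice, higher than 95.3% of the 12053 genes tested. Chrnb1 followed at 16.9 FPKM, Musk at 11.1, Gadd45a at 10.96 and Myod1 at 9.75. Chrna1 was at 2.81 FPKM and Myog at 2.02. Myf5 at 0.718, Chrnd at 0.521 and Runx1 at 0.217 were near the lower end of the tested genes. Within the receptor, the beta subunit RNA was thus more abundant per length than the alpha and the delta subunit RNA. Few reads lay behind the low genes, 4 to 64 per library for Chrnd, 6 to 77 for Runx1, 12 to 55 for Myf5 and 22 to 125 for Myog, so their values carry more counting error than those of the other members.

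**Figure D1:**
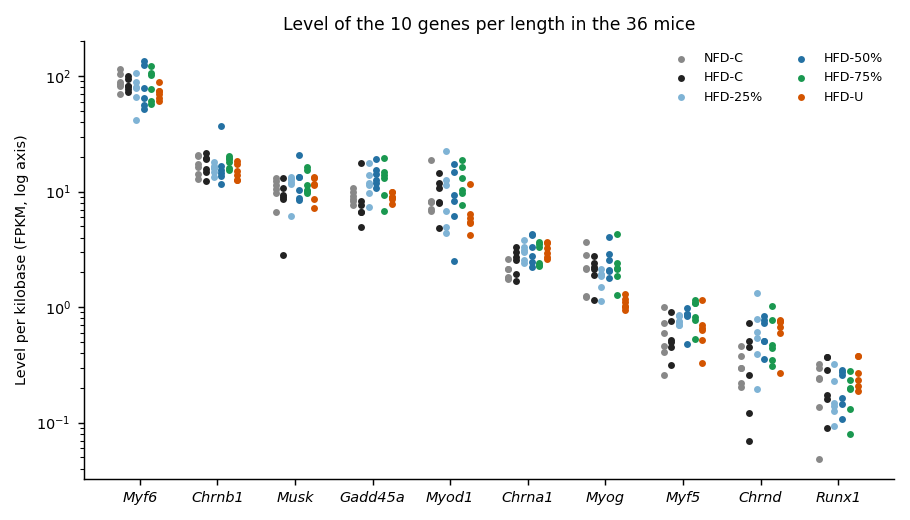
Level of each of the 10 genes per kilobase of gene length (FPKM, log axis), with 1 point for each of the 36 mice and colours for the 6 groups. The genes are ordered by their mean, from Myf6 at 83.3 FPKM to Runx1 at 0.217 FPKM, and most pairs of groups overlap within each gene.

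Myog encodes myogenin, the factor that commits precursor cells to differentiation (gene 17928, chromosome 1, 134217742 to 134220286, plus strand, GRCm39). In HFD-U its level was 1.39 CPM in the lowest mouse, with a median of 1.57 and a highest value of 1.92. In HFD-50% the lowest, median and highest values were 2.66, 3.47 and 5.95 CPM, so every HFD-50% mouse was above every HFD-U mouse. HFD-C ranged from 1.69 over a median of 3.24 to 4.11 CPM, and 5 of its 6 mice were above all HFD-U mice. NFD-C lay between 1.81 and 5.44 CPM with a median of 3.19, HFD-25% between 1.66 and 3.19 with a median of 2.78, and HFD-75% between 1.87 and 6.33 with a median of 3.22. Each of these groups overlapped HFD-U at its lower end. The SD in HFD-U was 0.197 CPM around a mean of 1.61 (12.2% of the mean). The SDs of the other groups were 0.554 to 1.51 CPM (21.4 to 43.2% of their means). Only 22 to 31 reads per library lay behind the HFD-U values, so likeness of the mice cannot be told from counting error.

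**Figure D2:**
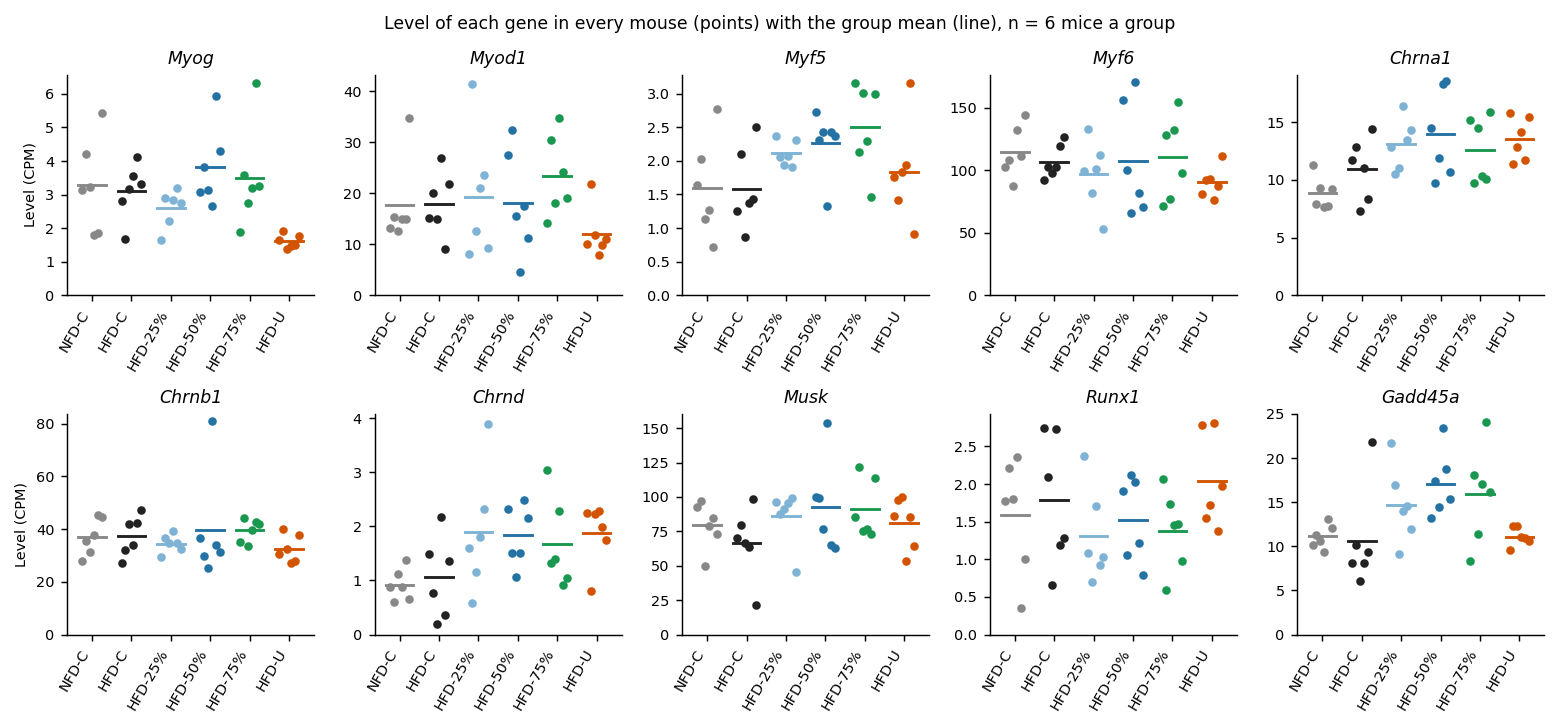
Level of each gene (CPM, axis from 0) in every mouse, as points, with the mean of each group as a line, for 6 mice in each of the 6 groups. The HFD-U points of Myog lie between 1.39 and 1.92 CPM below all HFD-50% points, and for most other genes the 6 groups overlap.

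In order of the group means, Myog was highest in HFD-50% (3.82 CPM), followed by HFD-75% (3.49), NFD-C (3.28), HFD-C (3.11), HFD-25% (2.59) and HFD-U (1.61). An unadjusted p of at most 0.05 is called the nominal threshold here, beside the adjusted threshold of the same size over all genes of a fit. In 1 edgeR fit over the 6 groups, the first 4 steps of this order did not pass the nominal threshold, and the last step, from HFD-25% to HFD-U, did (adjusted p = 0.999). A test of any difference among the 6 groups passed the nominal threshold, as 12.2% of all genes did, and gave Myog an adjusted p of 0.0744.

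Myog was 1.24 ± 0.231 (log2, SE) higher in HFD-50% than in HFD-U when only these 12 mice were fitted, with an adjusted p of 0.0731 by the quasi-likelihood test of edgeR with Benjamini-Hochberg adjustment. The adjusted p passed 0.05 in the fit over all 6 groups (0.0331), as for 51 of 12053 genes, and with DESeq2 (0.000631), as for 102 of 11851 genes. Over the 20 alternatives run it ranged from 0.000631 to 0.323, with the nominal threshold passed in all 20. The range of its log2 difference over these settings was 1.07 to 1.53. Of all genes 12.4% passed the nominal threshold in this comparison, 7.08% as higher in HFD-50%, 0.00844% passed the adjusted threshold in the fit of these 12 mice, which Myog did not, and for 0.846% the groups did not overlap. Beside Myog, 1 other member of the 10 tested (Gadd45a) was higher at the nominal threshold with no overlap. With the rRNA-linked share in the fit 543 of 11851 genes passed the nominal threshold in place of 1472, and the differences were 1.53 for Myog (adjusted p = 0.319) and 0.43 for Gadd45a (adjusted p = 0.998), both still at the nominal threshold.

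The level of Myog in HFD-U was also below that of the sedentary mice on the same diet. The difference from HFD-C was -0.96 ± 0.246 (log2, SE), with an adjusted p of 0.427, and the nominal threshold was passed in all 21 alternatives. With the mouse number as a block the difference was -0.92 (adjusted p = 0.293). In the other running groups Myog differed from HFD-C by -0.28 ± 0.251 (HFD-25%), 0.29 ± 0.261 (HFD-50%) and 0.17 ± 0.288 (HFD-75%), none of which passed the nominal threshold. All of these comparisons share the same 6 HFD-C mice.

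Gadd45a encodes a stress-induced protein that is also induced in denervated muscle (gene 13197, chromosome 6, 67012080 to 67014391, minus strand, GRCm39). In HFD-50% its level was 13.2 CPM in the lowest mouse, 16.4 at the median and 23.4 in the highest. In HFD-U the lowest, median and highest values were 9.57, 11.02 and 12.3 CPM, and in NFD-C they were 9.38, 10.95 and 13.1. All 6 HFD-50% mice were therefore above all HFD-U and all NFD-C mice. HFD-25% ranged from 9.09 to 21.7 CPM with a median of 14.3, and HFD-75% from 8.39 to 24.1 with a median of 16.6, so both overlapped every other group. For 1.76% of all genes HFD-50% and NFD-C did not overlap.

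The HFD-C values of Gadd45a were not all alike. Replicate 6 had 21.8 CPM, while the other 5 HFD-C mice had 6.08 to 10.1 CPM, below all but 1 of the HFD-U mice and all but 1 of the HFD-25% mice. The same mouse had the lowest Musk level of all 36 mice, 21.2 CPM, and its rRNA-linked share was low (0.626%). Gadd45a was 0.69 ± 0.263 (log2, SE) higher in HFD-50% than in HFD-C at the nominal threshold (adjusted p = 0.365), and without replicate 6 the difference was 1.04 (adjusted p = 0.0647). With only HFD-C replicates 5 and 6, which have a low rRNA-linked share as the running mice do, the difference was 0.13 (adjusted p = 0.911). The size of the difference from HFD-C thus rested on which HFD-C mice were kept.

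A comparison without HFD-C mice does not have this limit. Gadd45a was 0.63 ± 0.145 (log2, SE) higher in HFD-50% than in HFD-U, with an adjusted p of 0.183. With DESeq2 its adjusted p was 0.0193, where 102 of 11851 genes passed the adjusted threshold. It passed the nominal threshold in all 20 alternatives, whose adjusted p ranged from 0.0193 to 0.998. In the order of group means, HFD-50% (17.1 CPM), HFD-75% (15.9) and HFD-25% (14.7) came before NFD-C, HFD-U (both 11.1) and HFD-C (10.6), and no neighbouring pair differed at the nominal threshold. A long noncoding RNA gene, E230016M11Rik, overlaps Gadd45a on the other strand with a mean of 16 counts against 230.2 for Gadd45a. The strand setting of the counting is not given in the sources used here, so reads of these features may not have been told apart.

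**Figure D3:**
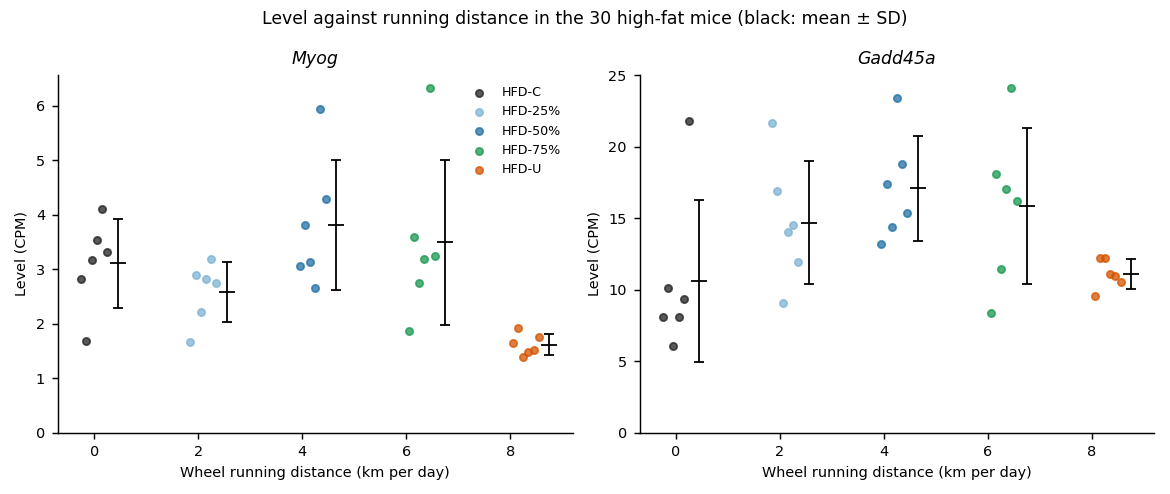
Level of Myog and of Gadd45a (CPM) against the mean running distance of the group (km per day) in the 30 mice on the high-fat diet, with 1 point a mouse and the mean ± SD in black. Both genes have their highest mean at 4.2 km per day and low, narrow values at 8.3 km per day, and 1 HFD-C mouse stands apart for Gadd45a at 21.8 CPM.

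Whether the levels followed the running distance was tested with a linear and a squared term of the distance in edgeR. Over the 24 running mice Myog had an adjusted p of 0.0687 and Gadd45a of 0.428. The fitted level at HFD-50% was above that at HFD-U by 1.27 (log2) for Myog and by 0.64 for Gadd45a. These were the only 2 of the 10 members tested that passed the nominal threshold, against 8.49% of all genes, while 0.0419% of genes passed the adjusted one.

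Over the 30 high-fat mice, sedentary ones included, 3 of the 10 members passed the nominal threshold in the same test, against 12.2% of all genes. None passed the adjusted one, against 0.683% of all genes: the adjusted p was 0.157 for Gadd45a, 0.166 for Myog and 0.376 for Myf5. The fitted level at HFD-50% was above that at HFD-C by 0.70 (log2) for Gadd45a, by 0.39 for Myog and by 0.61 for Myf5. With a linear term alone no member passed, either over these 30 mice or over the 24 running mice, and the fitted difference of Myog over the 30 mice was then -0.24. Over the running mice Myog passed the adjusted threshold with DESeq2 (adjusted p = 0.00183), as 52 of 11935 genes did. It also passed with the mouse number as a block (0.0147), as 13 of 11935 genes did. Over the 30 mice Gadd45a passed the adjusted threshold without HFD-C replicate 6 (0.00915), as 70 of 12013 genes did.

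Other genes moved beside Myog and Gadd45a between HFD-50% and HFD-U. Of 7 slow fibre markers, 6 were higher in HFD-50% at the nominal threshold, where 7.08% of all genes were higher. Among the 6 were the slow myosin gene Myh7 by 1.99 ± 0.540 (log2, SE, adjusted p = 0.239) and the slow troponin gene Tnni1 by 2.09 ± 0.602. The summed level of the list was 588 to 3885 CPM in HFD-50% (median 1637) and 145 to 1813 CPM in HFD-U (median 706), and no marker of it was at 0 in these mice. With the log2 of this sum as a covariate, an alternative chosen after the data were seen, Myog was 1.07 higher in HFD-50% (adjusted p = 0.323) and Gadd45a 0.67 (adjusted p = 0.314), both at the nominal threshold. In that fit 5 members passed the nominal threshold, where 8.83% of all genes did, and none passed the adjusted one.

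Genes of the circadian clock differed as well. Of 15 clock genes tested, 9 passed the nominal threshold between HFD-50% and HFD-U, where 12.4% of all genes did. Of these 9, 8 were lower in HFD-50%, and Arntl, the core activator also called Bmal1, was higher by 1.33 ± 0.411 (log2, SE). The summed level of the 16 clock genes in the table was 789 to 1028 CPM in HFD-50% and 1100 to 1434 CPM in HFD-U, with no overlap. Of 5 Schwann cell markers tested, 2 were higher in HFD-50% at the nominal threshold (Prx and Pmp22), where 7.08% of all genes were higher. The 8 markers summed to 67.9 to 136 CPM in HFD-50% against 35.5 to 82.3 CPM in HFD-U, and none was at 0. The part of the clock genes and of the Schwann cell markers in the differences of Myog and Gadd45a was not tested.

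**Figure D4:**
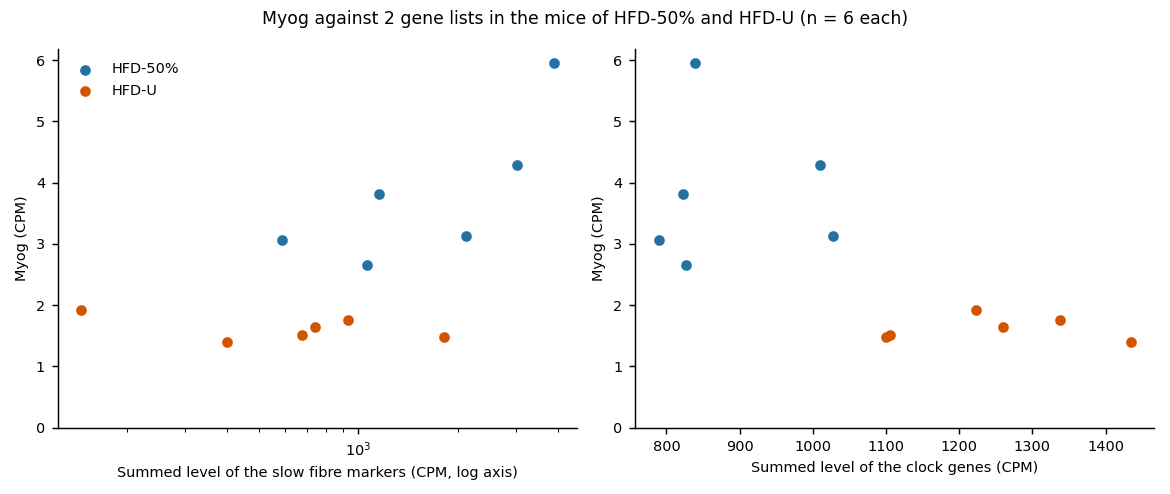
Level of Myog (CPM) against the summed level of the 7 slow fibre markers (CPM, log axis, left) and of the 16 clock genes (CPM, right) in the 12 mice of HFD-50% and HFD-U, with 1 point a mouse. The groups overlap along the slow fibre axis, between 588 and 1813 CPM, and do not overlap along the clock axis or along the Myog axis.

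Myod1 encodes MyoD, the factor that turns other cells into muscle when it is expressed in them (gene 17927, chromosome 7, 46025898 to 46028516, plus strand, GRCm39). In HFD-U its level ranged from 7.83 over a median of 10.5 to 21.7 CPM, and in HFD-C from 9.06 over 17.6 to 26.9 CPM. The ranges overlapped, although 5 of the 6 HFD-U mice were at or below 11.8 CPM and 5 of the 6 HFD-C mice were above it. The difference was -0.59 ± 0.259 (log2, SE) at the nominal threshold, with an adjusted p of 0.883. The other groups spread widely, HFD-25% from 8.18 to 41.4 CPM and HFD-50% from 4.62 to 32.4 CPM, and HFD-75% had the highest mean with 23.4 ± 7.86 CPM (SD, n = 6).

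Myf6 is the factor of mature fibres (gene 17878, chromosome 10, 107328709 to 107330584, minus strand), and its highest value was 3.24 times its lowest over the 36 mice, against 4.41 to 8.97 times for the other 3 factors. It lay at 76.6, 90.0 and 112 CPM in HFD-U (lowest, median, highest) and at 92.2, 103 and 127 CPM in HFD-C. These ranges overlapped, and the difference was -0.26 ± 0.118 (log2, SE) at the nominal threshold, with an adjusted p of 0.912. In HFD-25%, HFD-50% and HFD-75% the differences from HFD-C were -0.17, 0.00 and 0.04.

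With Myog, Myod1 and Myf6, 3 of the 10 members were lower in HFD-U than in HFD-C at the nominal threshold and none was higher, where 5.46% of all 12023 genes passed in either direction and 3.31% were lower. None of the 10 passed at an adjusted p of 0.05 by edgeR or by DESeq2. With the mouse number as a block, 5 members passed the nominal threshold, where 10.2% of all genes did. They were these 3 and Chrna1 (0.32 higher, adjusted p = 0.449) and Chrnd (0.98 higher, adjusted p = 0.486). In the fit over all 6 groups, of the members, only Myog passed it, where 5.33% of all genes did. Without 1 mouse the count was 1 to 4, and it was 1 without HFD-C replicate 2 or 4 and without HFD-U replicate 1, 3, 4 or 5.

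Some markers of other cells also differed between HFD-U and HFD-C. Of 3 adipocyte markers tested 2 were lower at the nominal threshold (Adipoq and Lep), where 3.31% of all genes were lower. The 5 markers summed to 1.28 to 12.3 CPM in HFD-U and 2.60 to 65.3 CPM in HFD-C. The highest sum was that of HFD-C replicate 6, the next 14.8 CPM, and the medians were 7.69 CPM in HFD-U and 6.00 CPM in HFD-C. Adipoq and Retn had 0 counts in at least 1 HFD-U mouse, Plin1 in at least 1 mouse of both groups and the Schwann cell marker Ncmap in at least 1 HFD-C mouse. In each of the Schwann cell, macrophage and red blood cell lists 1 gene was lower (Prx, Cd68 and Hba-a2), of 5, 4 and 5 tested. Their summed levels were 35.5 to 82.3, 16.03 to 33.99 and 119 to 309 CPM in HFD-U and 43.5 to 211, 20.4 to 35.7 and 169.5 to 407 CPM in HFD-C. All 7 slow fibre markers had differences below 0 (median -0.78) and none passed. With the log2 of the slow fibre sum as a covariate, chosen after the data were seen, 5 members passed the nominal threshold, as 6.43% of all genes did. They were Myog, Myod1, Myf6, Chrna1 (0.36 higher, adjusted p = 0.598) and Chrnd (1.26 higher, adjusted p = 0.292). The part of the other markers in the differences of Myog, Myod1 and Myf6 was not tested.

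Myf5, the earliest factor of the family, lies 5922 bases from Myf6 on the same strand (gene 17877, chromosome 10, 107318769 to 107322787). It was at 1.47, 2.64 and 3.16 CPM in HFD-75% (lowest, median, highest) and at 0.868, 1.40 and 2.50 CPM in HFD-C. The groups overlapped, and the difference was 0.65 ± 0.292 (log2, SE) at the nominal threshold, with an adjusted p of 0.889. Myf5 was the only one of 9 members tested in HFD-75% that passed, against 5.47% of all genes, and it passed in 7 of 20 alternatives. The difference was 0.34 with the rRNA-linked share in the fit and 0.33 with only HFD-C replicates 5 and 6, and with the mouse number as a block it was 0.68 and did not pass. Its level differed from HFD-C by 0.40 ± 0.271 in HFD-25%, 0.51 ± 0.293 in HFD-50% and 0.21 ± 0.329 in HFD-U.

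**Figure D5:**
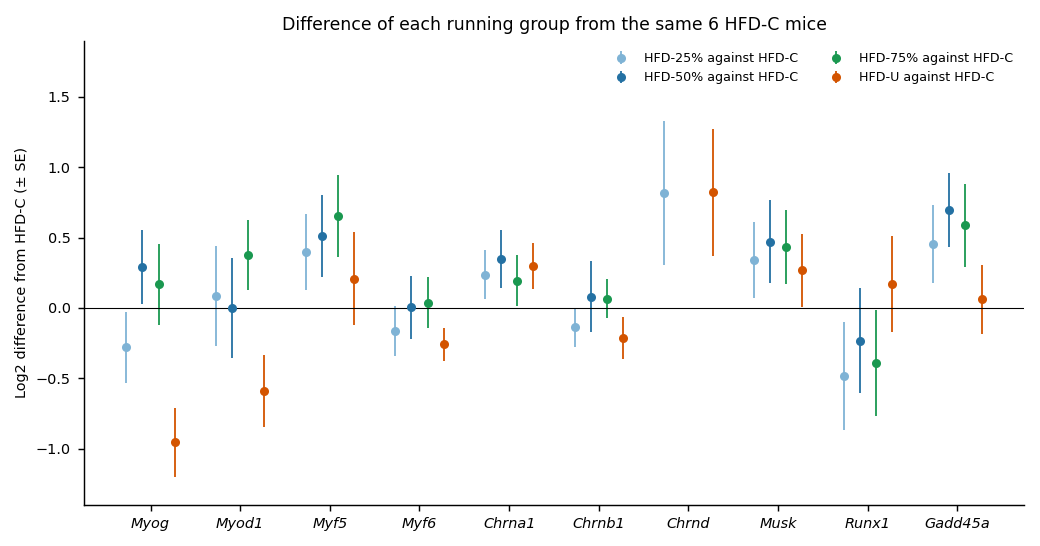
Log2 difference of each running group from HFD-C (points, ± SE) for the 10 genes, from 1 edgeR fit for each pair of groups, with the same 6 HFD-C mice in all. Myog in HFD-U lies lowest at -0.96, Chrna1, Musk, Myf5 and Gadd45a lie above 0 in all 4 groups, and Chrnd is shown only for HFD-25% and HFD-U, where its mean count reached 25.

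Chrna1 encodes the alpha subunit, which carries the acetylcholine binding site (gene 11435, chromosome 2, 73393625 to 73410682, minus strand, GRCm39). NFD-C had the lowest median, with 7.63, 8.55 and 11.3 CPM as lowest, median and highest. HFD-C mice were at 7.30, 11.4 and 14.4 CPM. The mice of HFD-U were at 11.3, 13.5 and 15.8 CPM and those of HFD-50% at 9.70, 13.2 and 18.6 CPM. Every HFD-U mouse was above every NFD-C mouse (11.32 against 11.26 CPM at the border), and all other pairs of groups overlapped. HFD-U and NFD-C did not overlap, in either direction, for 1.05% of all genes.

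In the fit over all 6 groups, Chrna1 was higher than in NFD-C by 0.55 ± 0.171 (log2, SE) in HFD-25%, by 0.65 ± 0.171 in HFD-50%, by 0.50 ± 0.171 in HFD-75% and by 0.60 ± 0.171 in HFD-U. Its adjusted p was 0.188, 0.0323, 0.299 and 0.128, so that it passed the adjusted threshold in HFD-50%, in a contrast where 302 of 12053 genes passed the adjusted threshold and 18.6% of all genes the nominal one. No other setting was run for these contrasts. The test of any difference among the 6 groups gave Chrna1 an adjusted p of 0.168. These contrasts differ in diet, in running and in the rRNA-linked share of the libraries, and these cannot be told apart in them. In the same fit, Chrna1 was 0.24, 0.34, 0.19 and 0.29 higher than in HFD-C in the 4 running groups in the same order, and HFD-C was 0.31 ± 0.171 above NFD-C, none of them at the nominal threshold.

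Chrnd encodes the delta subunit (gene 11447, chromosome 1, 87118319 to 87127792, plus strand, GRCm39). It had 0.204, 1.06 and 2.18 CPM in HFD-C (lowest, median, highest) and 0.600, 0.882 and 1.37 CPM in NFD-C. The running groups had medians of 1.71 (HFD-25%), 1.82 (HFD-50%), 1.36 (HFD-75%) and 2.11 CPM (HFD-U), above both sedentary groups, and all groups overlapped. Its mean count was below the minimum of 25 in 3 of the comparisons. Without that minimum, Chrnd was 0.78 ± 0.463 (log2, SE) higher in HFD-50% than in HFD-C (adjusted p = 0.476), 0.65 ± 0.476 higher in HFD-75% (adjusted p = 0.713) and 0.21 ± 0.526 higher in HFD-C than in NFD-C (adjusted p = 0.964).

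Over all 24 running mice against the 6 HFD-C mice, Chrnd was 0.76 ± 0.339 (log2, SE) higher at the nominal threshold, with an adjusted p of 0.465. Gadd45a (0.46 ± 0.213, adjusted p = 0.490) and Myf5 (0.45 ± 0.212, adjusted p = 0.519) were higher as well, which made 3 of 10 members, all higher, against 9.27% of all genes in either direction and 4.15% higher. None passed the adjusted threshold by edgeR or by DESeq2, against 0.3% of all genes by edgeR. The count at the nominal threshold was 0 with the rRNA-linked share in the fit and 0 when only HFD-C replicates 5 and 6 were kept, where 15.1% and 13.4% of all genes passed. In these settings the difference of Chrnd was larger, 1.07 and 1.08 (adjusted p = 0.338 and adjusted p = 0.379), while that of Myf5 was 0.19 and 0.13 and that of Gadd45a 0.27 and -0.10. When 1 mouse was left out it was 0 to 4, with 0 without HFD-C replicate 3 and 1 without HFD-C replicate 1, 4 or 5.

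Chrnb1, the beta subunit gene, was not among these members (gene 11443, chromosome 11, 69674862 to 69686791, minus strand, GRCm39). Its group means lay between 32.6 CPM in HFD-U and 39.6 CPM in HFD-50%, and its log2 differences from HFD-C were -0.22 to 0.08, none at the nominal threshold. It was lower at that threshold in HFD-U and in HFD-25% with the rRNA-linked share in the fit (-0.58 and -0.43) and with only HFD-C replicates 5 and 6 (-0.48 and -0.39), with adjusted p from 0.264 to 0.368. The HFD-50% mean was raised by replicate 4 at 80.9 CPM, while the other 5 mice of the group were between 25.2 and 36.7 CPM. Chrnb1 lies 10 bases from Zbtb4, on the other strand, which had a mean of 508 counts.

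Musk encodes the kinase that anchors the receptors at the synapse (gene 18198, chromosome 4, 58285742 to 58377848, plus strand, GRCm39). Its group means ran from 66.8 ± 25.7 CPM (SD, n = 6) in HFD-C to 92.9 ± 33.9 CPM in HFD-50%. It was higher than in HFD-C by 0.34 ± 0.270, 0.47 ± 0.295, 0.43 ± 0.263 and 0.27 ± 0.261 (log2, SE) from HFD-25% to HFD-U, none at the nominal threshold. The lowest of all 36 values, 21.2 CPM, was that of HFD-C replicate 6, and the highest, 154 CPM, that of HFD-50% replicate 4.

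Runx1, a transcription factor that limits wasting of denervated fibres, was the least abundant member per length (gene 12394, chromosome 16, 92398354 to 92622962, minus strand, GRCm39). Its group means ran from 1.30 CPM in HFD-25% to 2.04 CPM in HFD-U, all groups overlapped, and its log2 differences from HFD-C were -0.49 ± 0.386 (SE), -0.23 ± 0.372, -0.39 ± 0.375 and 0.17 ± 0.341 from HFD-25% to HFD-U. A long noncoding gene that overlaps Runx1 on the other strand had counts in 1 of the 36 libraries.

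The remaining counts of members were low. In HFD-25% against HFD-C 0 of 10 members passed the nominal threshold by edgeR, where 6.98% of all genes did, and DESeq2 also gave 0. The adjusted threshold was passed by 0.0082% of all genes and by no member. In HFD-50% against HFD-C 1 of 9 members did (Gadd45a), where 10.7% of all genes did. Between HFD-C and NFD-C, the comparison of the diets in sedentary mice, 0 of 9 members did by edgeR and 0 by DESeq2, where 4.12% of all genes did, and the log2 differences of the 9 members lay between -0.25 (Musk) and 0.30 (Chrna1).

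Other genes of the synapse were set beside the members. Of 17 such genes 14 were tested against HFD-C. None passed the nominal threshold in HFD-25%, HFD-50% or HFD-75%, where 6.98%, 10.7% and 5.47% of all genes did. In HFD-U 1 was lower (Lamb2, synaptic laminin, by 0.21 on the log2 scale), where 3.31% of all genes were lower. Chrne, the adult epsilon subunit gene, had group means between 12.2 CPM in NFD-C and 14.8 CPM in HFD-50%. Chrng, the fetal gamma subunit gene that denervation brings back, had 0 counts as its lowest value in each group and at most 12 counts in any library. Rapsn, which clusters the receptor, had group means from 5.50 to 7.29 CPM, and Ache, the enzyme that degrades acetylcholine, from 24.3 to 32.1 CPM.

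Between HFD-50% and HFD-U, 2 of the 14 synapse genes passed the nominal threshold, a share near the 12.4% of all genes. Agrn, which encodes agrin, was 0.48 ± 0.202 (log2, SE) higher in HFD-50% (adjusted p = 0.361), and Lrp4, its receptor, was 0.62 lower in HFD-50%, with an SE of 0.276 (adjusted p = 0.385). Dok7, the activator of MuSK, was lower in HFD-C than in NFD-C by 0.55 (SE 0.201, adjusted p = 0.9996) and had group means from 28.02 to 40.8 CPM. The median log2 difference of the 14 synapse genes between HFD-50% and HFD-U was -0.04, beside 0.02 for all genes.

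Of 12 denervation-linked genes that are no members, 10 were tested between HFD-50% and HFD-U, and 4 were higher in HFD-50% at the nominal threshold and none lower, where 7.08% of all genes were higher. They included the ubiquitin ligase genes Trim63 (1.20 ± 0.410, log2, SE) and Fbxo32 (0.93 ± 0.403), the cell cycle inhibitor gene Cdkn1a (1.49 ± 0.499) and Hdac5 (0.40 ± 0.125), with adjusted p from 0.265 to 0.376. The median of the 10 was 0.40, beside 0.02 for all genes. The list was not split by the direction in which denervation moves each gene, so the count and the median give no direction of a denervation response. Against HFD-C, 0 of the 10 passed in HFD-25% and 3 were higher in HFD-50%, where 6.98% and 10.7% of all genes passed in either direction. In HFD-75% 2 were higher and 1 lower (5.47% of all genes passed), and in HFD-U 1 was lower (5.46%). Between HFD-C and NFD-C 1 was higher and 2 were lower in HFD-C, where 4.12% of all genes passed. Of 6 satellite cell genes tested none passed in this comparison, and Mymk, the gene of the fusion protein myomaker, had at most 2 counts in any of the 12 libraries.

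How the members varied together is given as a description over the 36 libraries, which share the 6 groups, the depth and the split in rRNA-linked share. The highest Pearson correlations of log2 CPM among the 45 pairs of members were 0.66 for Myf6 and Chrnb1, 0.632 for Chrna1 and Chrnd and 0.443 for Myog and Myod1. After the group means were removed they were 0.646, 0.495 and 0.358. Outside the members, the gene most like Myf6 was Sqstm1 (0.846), the one most like Chrna1 was Bche, butyrylcholinesterase (0.823), and the one most like Chrnb1 was Atf4 (0.819). For Musk it was Gm42146 (0.851), for Chrnd Slc27a1 (0.821), for Gadd45a Cct7 (0.759), for Runx1 Pus10 (0.655), for Myf5 Arl2bp (0.653) and for Myog Gm15816 (0.638).

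For Myod1 the most alike was an unannotated feature 293 bases away on the opposite strand (0.704), with a mean of 65.1 counts, followed by Fbp2 (0.682). Myoparr, the noncoding gene 243 bases from Myog on the opposite strand, had 0 counts in all 36 libraries. Among the 10 denervation-linked and 15 clock genes, Myf6 followed Arntl (0.745), Fbxo32 (0.74) and Trim63 (0.716) and ran against Per3 (-0.681). Myod1 ran against Ciart (-0.627) and Per1 (-0.598). Chrna1 followed Dach2 (0.637), whose product is a repressor in the denervation pathway, and so did Chrnd (0.573). Myog had no correlation above 0.481 in size with any gene of these lists.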

How the data were processed

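RNA of 36 gastrocnemius muscles, 1 a mouse, was selected by its poly(A) tail and sequenced. The counts per gene were deposited by the authors as whole numbers with no normalization. The submitters' processing notes name HISAT2 2.0.5, featureCounts 1.5.0-p3, StringTie 1.3.3b, DESeq2 1.20.0 and edgeR 3.22.5 and the build mm10, while the chromosome accessions in the table belong to GRCm39. The strand setting of the counting is not given in the sources used here. Reads from a gene and from an overlapping gene on the other strand may therefore not be told apart.

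Tests were run with edgeR 4.0.16 in R 4.3.3. Each fit used the mice of the groups compared, the genes whose mean count over them reached 25, TMM factors and the two-sided quasi-likelihood F-test, with Benjamini-Hochberg adjustment over all genes of the fit. Members were counted at an unadjusted p up to 0.05 (the nominal threshold), the limit of the study for listing genes, and at the same limit of the adjusted p. Standard errors were taken from the log2 difference and its F value. Trends used a linear and a squared term of the distance in percent of the unrestricted distance (0, 25, 50, 75 and 100). Correlations used log2 CPM with a prior count of 1. FPKM was computed from CPM and the gene lengths given with the counts. The tests were tried on simulated data.

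The members and the gene lists were chosen with earlier results of these data known. All members were named, and genes of the lists were named at the nominal threshold (at most 3 a list and comparison, smallest p first), with 7 synapse genes named by their role. The 3 genes most like each member were computed, and the first is given. Genes of the lists named beyond this were chosen after their values were seen.

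Alternatives were DESeq2 1.42.0, no minimum count, RLE factors, the mouse number as a replicate block, the rRNA-linked share as a covariate, leaving out the mice numbered 1, each mouse in turn or HFD-C replicates 1 to 4, 1 fit over all 6 groups, and other forms of the trend. The slow fibre level as a covariate was chosen after seeing the data. Mice carry the numbers 1 to 6 in every group, and no source says that a number marks a shared cage or day. In all 6 pairs of same-numbered HFD-U and HFD-C mice, the deviations from the group means were correlated (r from 0.123 to 0.504). Blocked values are given for that comparison. The same r was not computed for mice of different numbers, so it cannot show that a shared number links mice. In the other pairs of groups 1 to 5 of the 6 pairs had a correlation above 0.1.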

Additional observations from a re-analysis of the deposited data

Results flagged for a closer look

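In 7 of 60 sets of 6 mice (10 genes, 6 groups), the highest or the lowest mouse stood apart from the rest by Dixon's criterion, which chance alone meets in about 1 of 20 sets. Myod1 was at 34.68 CPM in NFD-C replicate 6 (next 15.27) and at 21.72 CPM in HFD-U replicate 2 (next 11.8). Myf5 was lowest in HFD-50% replicate 4 at 1.329 CPM, where Chrnb1 was highest at 80.88 CPM. Chrnd was at 0.8045 CPM in HFD-U replicate 2, Musk at 45.77 CPM in HFD-25% replicate 6, and Gadd45a at 21.84 CPM in HFD-C replicate 6.

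Myog was lower in HFD-U than in HFD-50% by a direct test in the fit over all 6 groups. The difference was -1.24527 (log2), with an adjusted p of 0.0331 by edgeR, adjusted over the genes of this contrast and not over the contrasts. In the edgeR fit of the HFD-50% and HFD-U mice alone the adjusted p was 0.0731, and over the alternatives it ranged from 0.000631 to 0.323.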

How the results depend on the processing

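Of 2229 log2 values recomputed for single members under other settings, 2089 kept their direction where it was called and their side of the nominal threshold (an unadjusted p up to 0.05). Another 83 no longer passed it, 55 newly passed it and 2 that had passed it changed sign (146 values changed sign in all): Gadd45a in all running mice against HFD-C was -0.0989884 with only HFD-C mice 5 and 6, and Myog over the high-fat mice was -0.236 with a linear term alone. The causes were not tested. Myog passed the nominal threshold in all settings run for HFD-U against HFD-C and for HFD-50% against HFD-U.

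With the rRNA-linked share in the fit, 1 member passed the nominal threshold against HFD-C in HFD-25%, where 13.3% of all genes did. It was passed by 0 members in HFD-75% (8.42% of all genes), in HFD-50% (11.6%) and in all running mice (15.1%). In HFD-C against NFD-C 1 member passed (7.05%), as did 1 in the trend over the running mice (4.82%). With only HFD-C mice 5 and 6 the count was 1, 0 and 0 from HFD-25% to HFD-75% (11.6%, 9.45% and 8.99% of all genes). In all running mice it was 0 (13.4%), and with only HFD-C mice 1 to 4 it was 1 against NFD-C (4.96%). In 1 fit over all 6 groups it was 2 for HFD-75% (5.6% of all genes) and 1 for HFD-U (5.33%) against HFD-C. Without the mice numbered 1 it was 1 in all running mice (8.77%). A linear term alone gave 0 in both trends (3.95% of all genes over the high-fat mice and 7.13% over the running mice). The slow fibre level as a covariate gave 5 in HFD-U against HFD-C (6.43% of all genes) and 5 in HFD-50% against HFD-U (8.83%). It gave 4 in the trend over the running mice (8.3%). At the adjusted threshold of 0.05, DESeq2 gave 2 members in HFD-50% against HFD-U, where 102 of 11851 genes passed. In the trend over the running mice it gave 1, where 52 of 11935 genes passed. The fit over all 6 groups gave 1 in HFD-50% against HFD-U, where 51 of 12053 genes passed.

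With the mouse number as a replicate block, 2 members in HFD-25% and 5 in HFD-U passed the nominal threshold against HFD-C, where 8.28% and 10.2% of all genes did. In the trend over the running mice 1 member (Myog) passed the adjusted threshold, as 13 of 11935 genes did. The block moved no other count of members by over 1.5 times. No source says that same-numbered mice share more than the number, in HFD-U and HFD-C or in any other pair of groups.

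Leaving out 1 mouse gave 0 to 2 members at the nominal threshold in HFD-25% (1 without HFD-C replicate 4, 2 without replicate 6), 1 to 2 in HFD-50% (2 without HFD-C replicate 6 or HFD-50% replicate 4), 0 to 2 in HFD-75% (2 without HFD-C replicate 6, and 0 without HFD-C replicate 1, 3 or 4 or HFD-75% replicate 4 or 6), 1 to 4 in HFD-U, 0 to 4 in all running mice, 0 to 1 in HFD-C against NFD-C (1 without HFD-C replicate 3 or 6), and 2 to 3 in HFD-50% against HFD-U and in both trends. At the adjusted threshold leaving out 1 mouse gave 0 to 1 in the trends and 0 elsewhere. The count was 1 without HFD-C replicate 6 over the high-fat mice, where 70 of 12013 genes passed. It was also 1 without HFD-75% replicate 1 over the running mice, where 8 of 11943 genes passed. Depth limits Chrnd (4 to 64 reads a library), Runx1 (6 to 77) and Myf5 (12 to 55).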

Other observations

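The inhibitors of the myogenic factors, which bind their partners and keep them from DNA, were measured beside them. Of 12 partners and inhibitors tested between HFD-50% and HFD-U, 2 were higher in HFD-50% at the nominal threshold and none was lower. Of all genes 12.4% passed in either direction and 7.08% were higher. Id3 was 0.91 ± 0.220 (log2, SE) higher (adjusted p = 0.201) and Id1 0.90 ± 0.296 (adjusted p = 0.271). In HFD-50% against HFD-C, the same genes had log2 differences of 0.61 ± 0.173 (Id3) and 0.62 ± 0.265 (Id1), and Id2 was 0.80 ± 0.263 higher in HFD-25% (adjusted p = 0.50).

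Gadd45g, a relative of Gadd45a, was lower than in HFD-C at the nominal threshold in HFD-25%, with a log2 difference of -1.15 (SE 0.301, adjusted p = 0.343), and in HFD-75%, with -0.89 (SE 0.325, adjusted p = 0.746). Its differences of -0.60 in HFD-50%, -0.19 in HFD-U and -0.67 in all running mice did not pass. Gadd45a had differences of 0.45 ± 0.277 (log2, SE) in HFD-25% and 0.59 ± 0.295 in HFD-75%. Neither passed the nominal threshold by edgeR (adjusted p = 0.786 and adjusted p = 0.936). These comparisons share the 6 HFD-C mice.

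The satellite cell and fusion genes did not pass the nominal threshold in any comparison with HFD-C. Of 10 such genes 6 were tested, and their medians were between -0.11 (HFD-U) and 0.17 (HFD-75%) on the log2 scale, beside -0.01 (HFD-U) for all genes. Pax7, the gene that marks these cells, had 11 to 51 counts a library in HFD-U and 18 to 43 in HFD-50%.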
